A study of Rattus norvegicus with 6 samples.

Results

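The family of miR-15, miR-16, miR-195, miR-497 and miR-322 was examined in small RNA sequencing data from rat cortical neurons as 10 named mature miRNAs, out of 649 listed in every library. The members are rno-miR-15a-5p, rno-miR-15b-5p, rno-miR-15b-3p, rno-miR-16-5p, rno-miR-16-3p, rno-miR-195-5p, rno-miR-195-3p, rno-miR-497-5p, rno-miR-322-5p and rno-miR-322-3p. They were chosen by name and not by a measured value, but with earlier results of these data known. All 10 were present in the 6 libraries. The 6 from the 5p arm form the seed family, in which miR-15a-5p is placed by its name, and the 4 from the 3p arm are their partner strands. The neurons came from embryonic day 18 Sprague-Dawley rats of both sexes, were dissociated from the cortex and were kept for 7 days in vitro by the labels, with a drug against dividing non-neuronal cells. The study's text also gives a slightly younger age for these cultures. At that age, 3 cultures received 100 ng/ml of brain-derived neurotrophic factor (BDNF) for 20 min, and 3 cultures received the vehicle, 0.1% BSA, for the same time. Below these are called BDNF and control libraries, each numbered as replicates 1 to 3. No gene was altered in either group. Each library is a bulk sample of a whole dish, so fewer cells with a miRNA and less of it per cell cannot be told apart.

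A miRNA is cut by Dicer from a hairpin precursor, which can give a mature strand from its 5′ arm (5p) and from its 3′ arm (3p). The strand that is loaded into an Argonaute protein finds its target mRNAs mainly through its seed, bases 2 to 8 from the 5′ end, so miRNAs with the same seed share many predicted targets. The miR-15/16 family is known for restraining the cell cycle and cell survival, through targets such as cyclins and BCL2. BDNF is a secreted factor that promotes the growth of dendrites, and the question behind the comparison was whether a short pulse of it alters the production of mature miRNAs.

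The 5p sequences are shown because the shared seed defines the family and because the bases after it separate its members. They are given 5′ to 3′ with the seed in capitals, from RefSeq (build GRCr8), which held 9 of the 10 members. The member without an entry was miR-15a-5p.
rno-miR-16-5p: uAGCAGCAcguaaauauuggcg
rno-miR-195-5p: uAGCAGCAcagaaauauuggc
rno-miR-15b-5p: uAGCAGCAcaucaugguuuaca
rno-miR-497-5p: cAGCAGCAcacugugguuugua
rno-miR-322-5p: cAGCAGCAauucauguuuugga

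All 5 sequences have AGCAGCA at bases 2 to 8. Among the 583 listed miRNAs with a RefSeq sequence, no others carried this seed. Outside the seed the members diverged. Aligned without gaps from base 1, miR-16-5p and miR-195-5p differed at 2 of 21 bases, the closest pair, whereas miR-16-5p differed from its cluster neighbour miR-15b-5p at 8 of 22 bases and from miR-497-5p at 11 of 22. The read assignment tolerated a mismatch and trimmed ends. How reads were split between miR-16-5p and miR-195-5p was not tested. The partner strands carry seeds other than that of the 5p members. The seed of rno-miR-195-3p, CAAUAUU, shares CAAUAU with that of rno-miR-16-3p, shifted by a base. The most abundant partner strand, rno-miR-322-3p, is shown beside the least abundant, rno-miR-16-3p, below.
rno-miR-322-3p: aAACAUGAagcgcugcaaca
rno-miR-16-3p: aCCAAUAUuauugugcugcuu

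The family is spread over several loci, of which that of miR-15a-5p is not given because it had no RefSeq entry. Reads were assigned to mature sequences and not to loci. Whether reads of miR-16-5p also came from another locus was not tested. Mature miR-15b-5p (chr2:155555197-155555218, plus strand) and miR-16-5p (chr2:155555343-155555364, plus strand) start 146 bases apart within the span of Smc4, a gene for a condensin subunit. Mature miR-497-5p (chr10:55450172-55450193, plus strand) and miR-195-5p (chr10:55450509-55450529, plus strand) start 337 bases apart, with no other RefSeq gene spanning them. The X chromosome holds miR-322-5p (chrX:137726198-137726219, minus strand) 299 bases from miR-503-5p, within the span of the lncRNA LOC102550366. All coordinates are those of GRCr8.

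Libraries held between 10374120 and 12533029 counts. Counts were scaled by these totals to RPM, of which 10 stood for 103.7 to 125.3 reads. Normalized RPM below are RPM divided by the TMM factor of the library, a scaling factor from edgeR that lay between 0.928 and 1.085. Neuronal miRNAs were abundant in the cultures, with 78590 ± 5091 normalized RPM of miR-128-3p, 5074 ± 102 of miR-124-3p and 1183 ± 106.6 of miR-137-3p in control libraries (SD, n = 3). Markers of other cells were present too, some above most members of the family. Libraries of the 2 conditions that carry the same number resembled each other in how they departed from their group means, so values are also compared within a number.

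Member levels covered a wide range and were dominated by a single strand. Control libraries held 826 ± 61 normalized RPM of miR-16-5p (SD, n = 3), which ranked 89th of the 649 miRNAs by mean RPM. The next member was a partner strand, miR-322-3p, with 98.7 ± 13.7. It was followed by miR-15b-5p with 60.7 ± 2.2, miR-15a-5p with 41.7 ± 7.8 and miR-322-5p with 23.1 ± 7.1, each with all control libraries below those of the member before it. The 2 members of the miR-497/miR-195 cluster lay side by side, with 17.9 ± 0.9 for miR-195-5p and 17.0 ± 2.4 for miR-497-5p, a difference within their spread. The range of miR-322-5p, from 17.9 to 31.3, also overlapped with both. Of the remaining strands, miR-195-3p had 8.78 ± 2.95, miR-15b-3p 7.31 ± 0.07 and miR-16-3p 2.07 ± 0.32. The first 2 of these overlapped in range, while miR-16-3p lay below both in every control library. Reads of about the same length are compared here, but the ligation of adapters can favour some sequences, so the order between miRNAs is that of the reads.

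**Figure D1:**
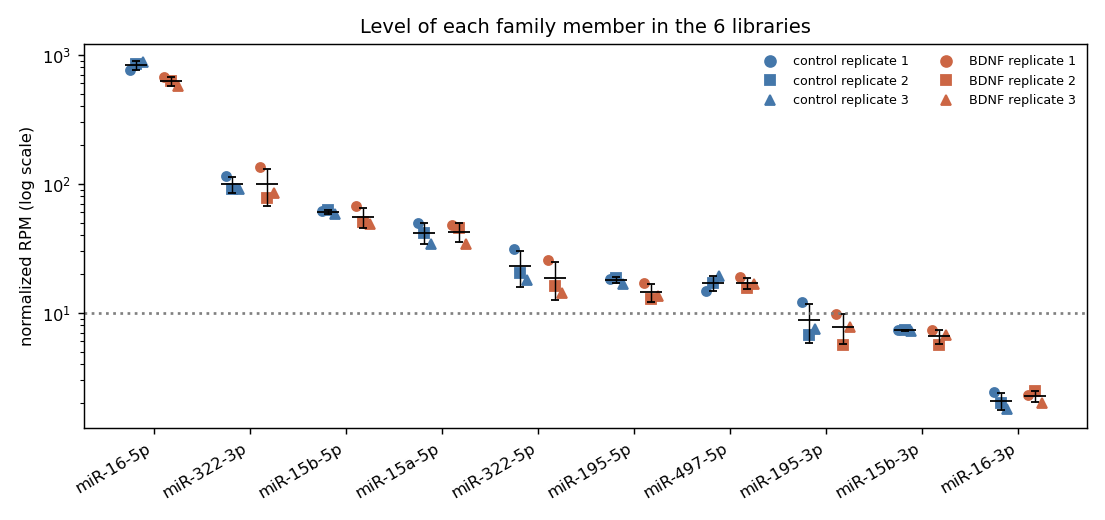
Normalized RPM (log axis) of the 10 members in each library, with control libraries in blue, BDNF libraries in orange, a symbol for each replicate number, and the mean ± SD of each group in black. The dotted line marks 10 normalized RPM, and only miR-16-5p has all its BDNF libraries (568 to 670) on one side of all its control libraries (758 to 872).

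Following the study's filter of 10 RPM in either condition, 7 of the 10 members were tested, all 6 seed members and miR-322-3p. Each of the 7 had a mean above 10 RPM in both conditions, so none entered through a single group. After Benjamini-Hochberg adjustment, the quasi-likelihood test of edgeR gave 0.999 for each of the 7 members, and called 0 of 336 miRNAs (0%) at 0.05. DESeq2 called 0 as well, and at an unadjusted 0.05 edgeR called 10 and DESeq2 12. At the study's unadjusted threshold of 0.05, 1 of the 7 members passed, miR-16-5p, against 2.98% of all 336 miRNAs. With the replicate number as a block, which compares BDNF and control within a number, 3 of the 7 members passed, miR-16-5p, miR-322-5p and miR-195-5p, all lower in BDNF libraries. This has to be read against the 20.5% of all miRNAs that passed with the block. After adjustment the blocked edgeR fit called 0 of 336 miRNAs (0%), with 0.12 as the smallest adjusted P-value. Without BDNF replicate 1, 2 members passed the unadjusted threshold in the fit with no block, and the blocked fit passed 2 to 4 members when both libraries of a number were left out. The median log2 fold change of the 7 members was -0.131, and that of all 336 miRNAs was -0.002.

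**Figure D2:**
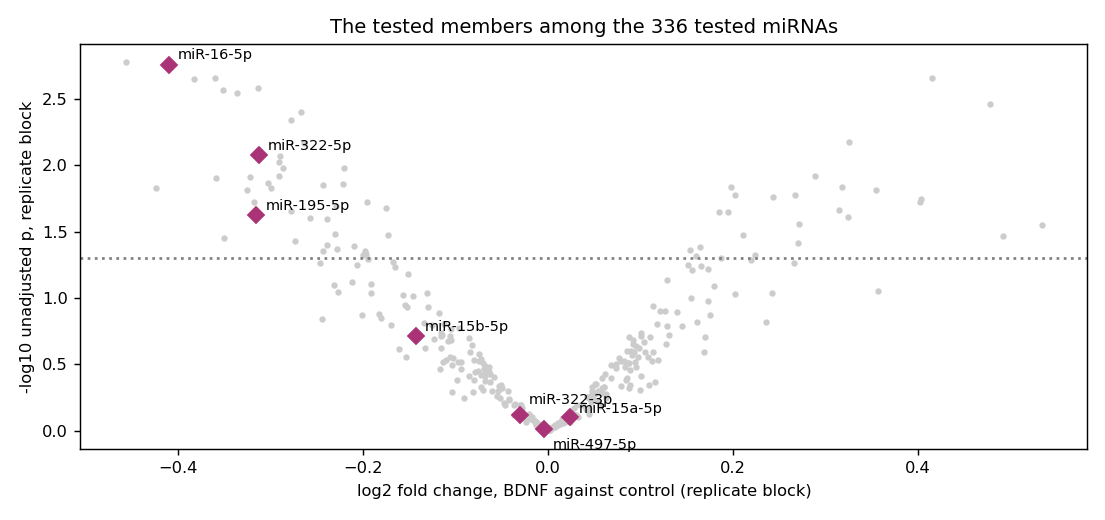
Log2 fold change (BDNF/control) against the -log10 unadjusted P-value from edgeR's fit with the replicate block, for the 336 tested miRNAs (grey) and the 7 tested members (purple diamonds). The dotted line marks the unadjusted threshold, and the 3 diamonds above it all lie to the left, at -0.41 (miR-16-5p), -0.32 (miR-195-5p) and -0.31 (miR-322-5p).

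The most abundant member, miR-16-5p, had 7856, 10156 and 9778 reads in the control libraries, in the order of their numbers, against 7263, 6875 and 7330 with BDNF. In normalized RPM these were 758, 849 and 872 in control and 670, 628 and 568 in BDNF libraries. The groups did not overlap, which held for 1 of the 7 tested members and for 7.14% of all tested miRNAs. The gap between the groups was narrowest in replicate 1 and widest in replicate 3. BDNF/control ratios of normalized RPM were 0.885, 0.740 and 0.651 by replicate number, and those of RPM from the column sums were 0.826, 0.752 and 0.653. The log2 fold change was -0.41 (95% interval -0.66 to -0.16). Its unadjusted P-value was 0.0065 without and 0.0017 with the block, and the adjusted values were 0.999 and 0.12 in edgeR. The study itself picked out miR-16-5p from these libraries, so its low P-value is not independent support.

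Among the other members, the miR-322/miR-503 and miR-497/miR-195 clusters each held a strand that was lower in BDNF libraries in every pair. For miR-322-5p, normalized RPM were 31.3, 20.2 and 17.9 in control replicates 1 to 3 and 25.5, 16.2 and 14.3 in BDNF replicates 1 to 3. The groups overlapped because both replicate 1 libraries were high, yet the ratios by number were nearly identical, at 0.815, 0.802 and 0.795 (mean 0.804 ± 0.010, SD, n = 3). These ratios rest on 324, 241 and 201 reads in control and 276, 177 and 184 reads in BDNF libraries. Their counting error was not computed, and the SD of 0.010 should not be read as their precision. The log2 fold change was -0.31 (95% interval -1.01 to 0.39), with an unadjusted P-value of 0.33 without the block and 0.0084 with it (adjusted 0.17 in edgeR). The unadjusted P-value of the blocked fit was at most 0.0491 when any 1 number was left out. Without the block, the log2 fold change was -0.01 without control replicate 1 and -0.61 without BDNF replicate 1, with -0.15 to -0.46 when any other library was left out. The smooth muscle marker miR-143-3p was likewise highest in both replicate 1 libraries, with 103.8 and 105.9 normalized RPM against 59.1 to 65.8 in the others. The rest of that list had few reads and did not share this order. Reads of miR-145-5p were 1, 3 and 5 in control and 1, 3 and 3 in BDNF replicates 1 to 3. Those of miR-145-3p were 5, 4 and 5 in control and 10, 6 and 3 with BDNF. The part of such cells in the level of miR-322-5p was not tested.

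For miR-195-5p, normalized RPM were 18.2, 18.6 and 16.8 in control replicates 1 to 3 and 17.0, 12.8 and 13.6 in BDNF replicates 1 to 3. BDNF replicate 1 thus lay above control replicate 3, and the other BDNF libraries lay below all controls. The ratios by number were 0.931, 0.689 and 0.804. Its log2 fold change of -0.31 had a 95% interval from -0.65 to 0.04 and an unadjusted P-value of 0.072 without the block. The blocked fit gave an unadjusted 0.024 (adjusted 0.18 in edgeR), and 0.13 when replicate 2 was left out of it. Without BDNF replicate 1, the fit with no block gave 0.021. Of the 2 endothelial markers, miR-126a-5p also had lower normalized RPM with BDNF in all 3 pairs (21.5, 19.8 and 18.9 in control, 18.9, 15.99 and 15.6 with BDNF). The more abundant miR-126a-3p did not, with BDNF/control ratios of 1.078, 0.824 and 0.966 by number. The part of endothelial cells in the level of miR-195-5p was not tested.

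The remaining tested members showed no such order. For miR-15b-5p, normalized RPM were 61.5, 62.3 and 58.2 in control and 66.7, 50.9 and 48.7 in BDNF libraries. The ratio was above 1 in replicate 1 (1.084) and below it in the others (0.817 and 0.837), with a log2 fold change of -0.13 (95% interval -0.50 to 0.24). It ran from -0.29 without BDNF replicate 1 to -0.05 without BDNF replicate 3, with -0.07 without BDNF replicate 2. In the blocked fit it was -0.26 without replicate 1 (unadjusted P-value 0.019 in edgeR), -0.07 without replicate 2 and -0.08 without replicate 3. Levels of miR-15a-5p were 49.7, 41.5 and 34.1 in control and 47.6, 45.1 and 34.4 in BDNF libraries, which tracked the replicate number in both groups, with ratios of 0.959, 1.086 and 1.009. Its log2 fold change was 0.02 (95% interval -0.44 to 0.48). Levels of miR-497-5p were 14.7, 17.0 and 19.4 in control and 18.8, 15.4 and 16.7 in BDNF libraries, with ratios of 1.284, 0.909 and 0.861. Its log2 fold change was 0.00 (95% interval -0.36 to 0.36). In the blocked fit the 95% intervals were narrower, from -0.38 to 0.09 for miR-15b-5p, from -0.17 to 0.22 for miR-15a-5p and from -0.30 to 0.29 for miR-497-5p. The blocked value of miR-195-5p, -0.32, lay inside the interval of miR-15b-5p and outside those of miR-15a-5p and miR-497-5p. Its own blocked interval, from -0.58 to -0.05, overlapped each of these intervals. The differences between members in log2 fold change were not tested here, and ratios between cluster neighbours are given below.

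Of the partner strands, miR-322-3p was tested, and its normalized RPM of 115, 90.8 and 90.8 in control and 135, 77.4 and 84.4 in BDNF libraries gave a log2 fold change of 0.00 (95% interval -0.56 to 0.57). Its ratios by number were 1.178, 0.852 and 0.929. The strands below the filter had few reads, with 62 to 88 per library for miR-15b-3p, 62 to 126 for miR-195-3p and 20 to 27 for miR-16-3p. Their mean ratios by number were 0.899 ± 0.116, 0.899 ± 0.128 and 1.105 ± 0.138 (SD, n = 3). Lower BDNF levels in all 3 pairs were thus seen for 3 of the 7 tested members (miR-16-5p, miR-322-5p and miR-195-5p), against 23.8% of all tested miRNAs. Below the filter, they were seen for miR-15b-3p, with ratios of 0.995, 0.77 and 0.933, the first close to 1. The 23.8% does not cover miRNAs below the filter.

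**Figure D3:**
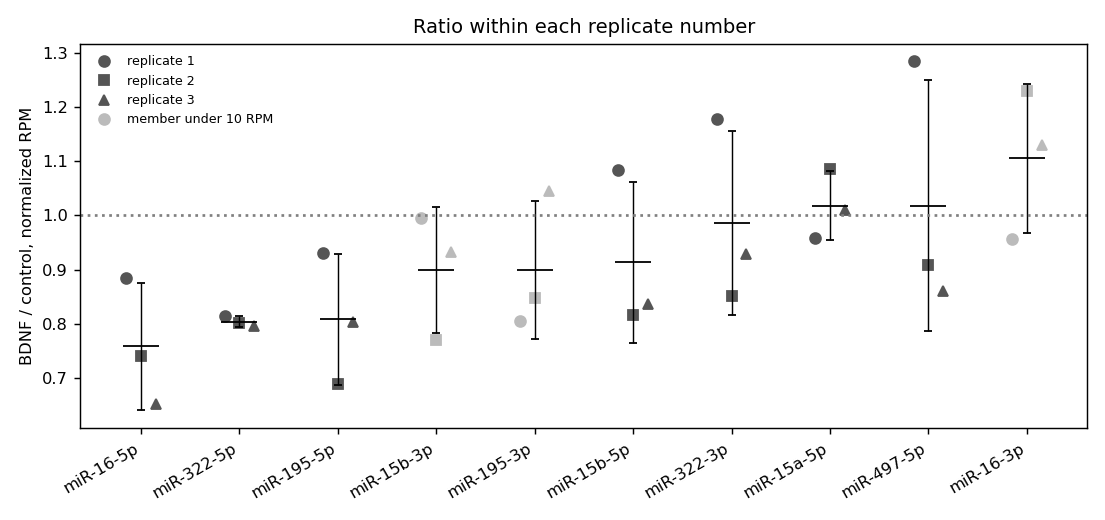
BDNF/control ratio of normalized RPM within each replicate number for the 10 members, ordered by mean, with the mean ± SD in black and members below the filter in light grey. The 3 points of miR-322-5p lie together at about 0.80, whereas those of miR-497-5p run from 0.861 to 1.284 on both sides of the dotted line at 1.

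The seed total, the sum of the 6 members with the same 5p seed region, was 933, 1009 and 1019 normalized RPM in control and 846, 768 and 695 in BDNF libraries. Its mean was 987 ± 47 in control and 770 ± 75 in BDNF libraries (SD, n = 3), with ratios by number of 0.907, 0.762 and 0.683. The difference of 217 normalized RPM was mostly that of miR-16-5p, which accounted for 204, or 94.2% of it. Without miR-16-5p, the other 5 members summed to 175, 160 and 146 in control and 176, 140 and 128 in BDNF libraries, which overlapped. The seed total is given without a test, since it sums members chosen with earlier results known. It made up 0.0997% of all control reads on average.

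Shares within the seed total do not depend on the scaling between libraries, and ask whether the members kept their proportions. The share of miR-16-5p was 81.2, 84.2 and 85.6% in control replicates 1 to 3 and 79.2, 81.7 and 81.6% in BDNF replicates 1 to 3. It was lower in BDNF libraries in all 3 pairs, by 2.8 percentage points on average, but the groups overlapped (exact permutation test, two-sided, P = 0.3). The difference was -4.35 points with the 3p members in the total, and -1.83 points without control replicate 3. The 95% Wilson interval of a single library, which covers counting error only, ran from 80.4 to 82.0% for control replicate 1, so the spread between replicates exceeded the counting error. The share of miR-15b-5p was 6.59, 6.18 and 5.72% in control and 7.89, 6.62 and 7.01% in BDNF libraries, with BDNF above control throughout. Likewise, miR-497-5p had 1.57, 1.68 and 1.91% in control and 2.23, 2.01 and 2.41% in BDNF libraries, again without overlap. Both gave P = 0.1 in the exact permutation test, the smallest value that 3 against 3 samples allow, and 0.3 when adjusted over the 6 shares. The share of miR-15a-5p was 4.26 ± 1.00% in control and 5.48 ± 0.48% in BDNF libraries (SD, n = 3) with overlapping groups (exact P = 0.2), and the mean shares of miR-195-5p and miR-322-5p differed by 0.057 and 0.019 points, within their spread. The shares of a library add up to the whole, so a lower share of miR-16-5p goes with higher shares elsewhere.

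**Figure D4:**
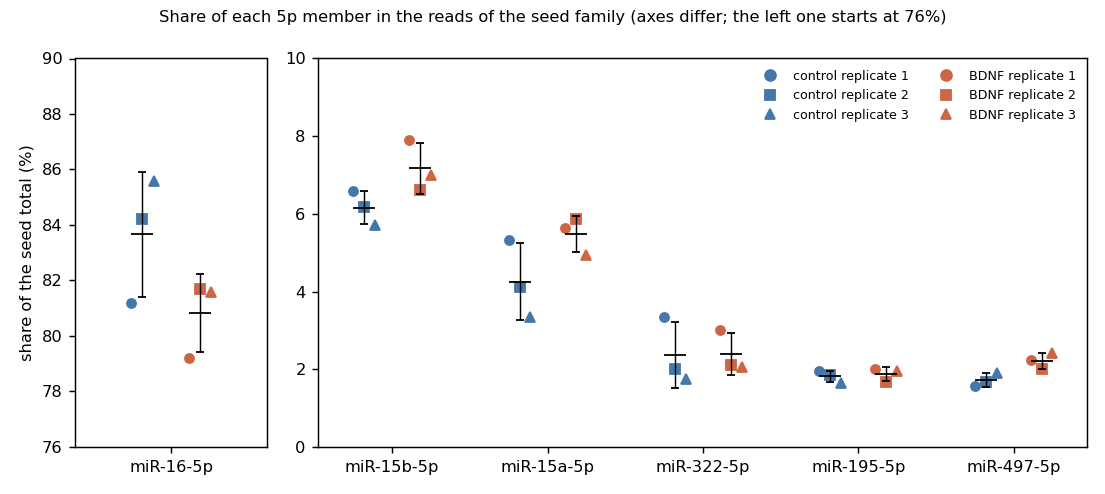
Share (%) of each 5p member in the counts of the seed family, per library, with the mean ± SD of each group in black; the left axis starts at 76%. Shares of miR-15b-5p and miR-497-5p lie higher in all BDNF than in all control libraries, while the share of miR-16-5p is 83.7 ± 2.3% in control and 80.9 ± 1.4% in BDNF libraries.

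Neighbours from the same locus were then compared within each library, with all reads of a miRNA taken as from that locus. The level of miR-16-5p exceeded miR-15b-5p by a log2 ratio of 3.62, 3.77 and 3.90 in control and 3.33, 3.62 and 3.54 in BDNF libraries, about 13.6-fold and 11.3-fold on average. The log2 ratio was lower with BDNF in all 3 pairs, by 0.27 on average, but the groups overlapped (exact permutation test, P = 0.2). The log2 ratio of miR-195-5p to miR-497-5p was 0.31, 0.13 and -0.21 in control and -0.15, -0.27 and -0.30 in BDNF libraries. It too was lower in all pairs with overlapping groups (exact P = 0.2), with means of 0.08 ± 0.26 and -0.24 ± 0.08 (SD, n = 3). For miR-322-5p over miR-503-5p, the log2 ratio was -0.18, -0.05 and -0.42 in control and -0.60, -0.47 and -0.38 in BDNF libraries (exact P = 0.2). Adjusted over the 3 ratios, all exact P-values were 0.2. These tests do not use the pairing, and with 3 samples per group 0.1 is their smallest possible P-value. Exact permutation tests within replicate numbers gave 0.25, 0.25 and 0.5 for the 3 ratios, in the order above.

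The balance of the arms was then compared. In control libraries the 5p strand exceeded the 3p strand 393-fold for miR-16, 8.26-fold for miR-15b and 2.1-fold for miR-195, whereas for miR-322 the 3p strand was the more abundant, 4.37-fold. For miR-15a and miR-497 the 3p strands had 0 to 2 and 0 to 1 counts per library, too few for a ratio. The arm ratio of miR-16 in log2 was 8.27, 8.70 and 8.90 in control and 8.15, 7.97 and 8.11 in BDNF libraries, without overlap (exact permutation test, P = 0.1, adjusted over the 6 precursors 0.4). Groups without overlap were seen for 10% of the 140 precursors with a mean of at least 10 counts for each arm. This ratio rests on 20 to 27 reads of miR-16-3p per library, and takes all reads of miR-16-5p as coming from the same precursor. For miR-322 the log2 ratio was -1.87, -2.17 and -2.34 in control and -2.40, -2.26 and -2.56 in BDNF libraries, lower in all 3 pairs with overlapping groups (exact P = 0.2). The mean difference of -0.28 was -0.15 without control replicate 1. The arm ratio of miR-15b, 3.05 ± 0.04 in control and 3.06 ± 0.19 in BDNF libraries (SD, n = 3), and that of miR-195, 1.07 ± 0.45 and 0.92 ± 0.22, differed by less than the spread between replicates.

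**Figure D5:**
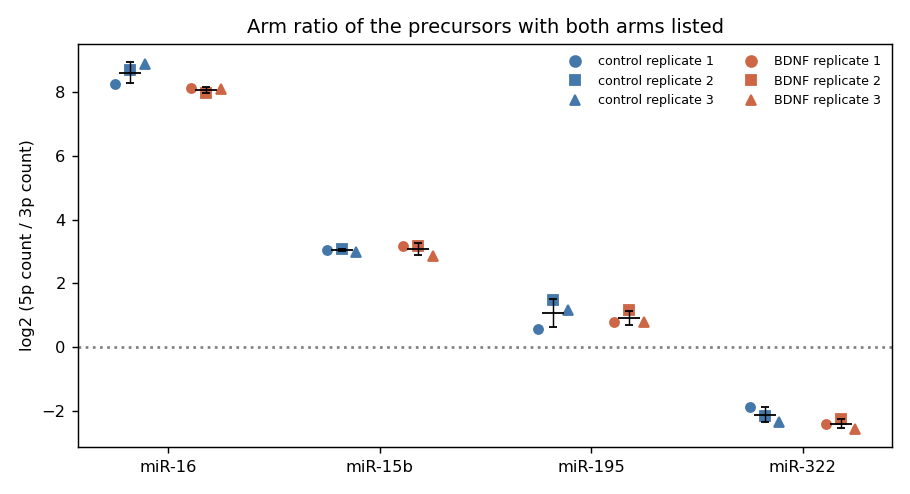
Log2 ratio of 5p to 3p counts (0.5 added to each) in each library for the 4 precursors with enough reads of both arms, with the mean ± SD of each group in black and a dotted line at equal arms. Only miR-322 lies below the line, and only for miR-16 do all BDNF libraries lie under all control libraries.

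Related miRNAs that are not members were read as a fixed list of 7. Both miR-103-3p and miR-107-3p carry AGCAGC a base earlier, which gives them another seed. In control libraries miR-103-3p was far above every member, with 14410 ± 1389 normalized RPM. The level of miR-107-3p, 829 ± 143.5, was close to the 826 ± 61 of miR-16-5p. In BDNF libraries miR-103-3p had 13320 ± 400 and miR-107-3p had 734 ± 60 (SD, n = 3). Their log2 fold changes were -0.11 and -0.18, with unadjusted P-values of 0.32 and 0.26 in edgeR. The cluster partner miR-503-5p, whose seed differs from that of the family in its last base, had 35.3, 20.8 and 24.0 normalized RPM in control and 38.8, 22.4 and 18.5 in BDNF libraries. It was high in both replicate 1 libraries, as was miR-322-5p, and its log2 fold change was -0.01. None of these 3 tested miRNAs passed the unadjusted threshold, with or without the block. The other miRNAs of the list were below the filter. Of these, miR-503-3p had 42 to 63 reads per library and miR-107-5p 1 to 9.

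The miRNAs whose normalized log2 RPM followed miR-16-5p most closely over the 6 libraries were miR-410-3p (Pearson r = 0.959), miR-7a-1-3p (0.907) and miR-551b-3p (0.837), out of 335. Within the family, miR-195-5p was the closest to miR-16-5p, in place 6 with r = 0.80. These 2 differ at 2 of 21 bases, and how reads were split between them was not tested. From the same locus as miR-16-5p, miR-15b-5p took place 35 (r = 0.61). Lower places were those of miR-322-5p (81, r = 0.38), miR-497-5p (100, r = 0.29) and miR-15a-5p (188, r = -0.04). The seed total was followed most closely by miR-410-3p (0.948), miR-374-5p (0.874) and miR-551b-3p (0.867). These correlations describe libraries that share their replicate numbers and conditions.

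Since miR-16-5p is also abundant in red blood cells, and the miR-497/miR-195 and miR-322/miR-503 clusters are known from vascular and muscle cells, markers of such cells are given. Of the red blood cell list, miR-451-5p had 35, 51 and 33 reads in control and 22, 51 and 22 in BDNF libraries, with ratios of normalized RPM by number of 0.601, 1.092 and 0.579. It was thus lower with BDNF in 2 of 3 pairs. Of the others, miR-144-3p had 9 to 23 reads per library and was lower in 2 of 3 pairs, with ratios of 0.691, 2.094 and 0.965. With 4 to 13 reads, miR-144-5p was lower in 1 of 3 pairs (1.531, 1.291 and 0.347). More abundant was miR-486, with 420 ± 19 normalized RPM in control and 437 ± 12 in BDNF libraries (SD, n = 3). It was lower in 1 of 3 pairs (0.986, 1.061 and 1.08). Summed over the list of 4, the ranges were 409 to 446 in control and 435 to 453 in BDNF libraries, nearly all of it miR-486. The 2 endothelial markers summed to 79.3 to 102 in control and 73.9 to 105 in BDNF libraries, and the 3 markers of smooth muscle and pericytes to 59.7 to 104 and 63.3 to 106.9. In the endothelial list, miR-126a-5p had a log2 fold change of -0.26 and an unadjusted P-value of 0.025 with the block in edgeR (adjusted 0.18). It was the only marker below an unadjusted 0.05 in that fit, against 20.5% of all 336 tested miRNAs. For miR-126a-3p the same blocked edgeR fit gave -0.07 and an unadjusted P-value of 0.47. The myeloid markers miR-142-3p and miR-142-5p summed to 1.42 to 2.41 and 1.2 to 2.74, and miR-219a-5p with miR-338-3p, of the oligodendrocyte lineage, to 27.5 to 35.5 and 32.8 to 36.7. No marker among the listed miRNAs was at 0 in every library. The part of such cells in the levels of the members was not tested.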

How the data were processed

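The authors trimmed adapters, filtered reads by quality and length and assigned them to rat mature miRNAs of miRBase with Miraligner, which accepts a mismatch and altered ends. The deposited values are raw read counts for 649 miRNAs in 6 libraries, summed over isomiRs. Tool versions, and how reads matching several miRNAs were counted, are not given in the sources used here. Counts were tested with edgeR 4.0.16 in R 4.3.3 (TMM, all counts as library size, quasi-likelihood test, Benjamini-Hochberg over the 336 miRNAs that averaged 10 RPM or more in one or the other condition). The standard error is the log2 fold change divided by the square root of F, and the 95% interval uses the degrees of freedom of the test. The study states no block, so a second fit added the replicate number as a term. The numbers, given by the labels, were taken to pair the samples. Over these miRNAs, the deviations of each same-numbered pair from the group means correlated (r = 0.81, 0.49 and 0.89). Correlations between differently numbered libraries are not given here for comparison. Shares and ratios within libraries used two-sided exact permutation tests without pairing (scipy 1.17.1), which cannot go below 0.1 here. Within replicate numbers the exact permutation test gave 0.25 or more for every share and ratio, and 0.25 is the smallest value that 3 pairs allow. No pair of libraries agreed within sampling noise (chi-square of at least 66.7 per degree of freedom). DESeq2 1.42.0, other scalings and filters, and leaving out samples were tried as alternatives. The members, the related miRNAs, the marker lists and the rule for naming the 3 most similar miRNAs were chosen with earlier results of these data known. The marker miR-223-3p, also of the myeloid list, was not among the 649 listed miRNAs, so it has no values here.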

Additional observations from a re-analysis of the deposited data

How the results depend on the processing

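With DESeq2, other normalizations, other filters, the replicate block and each sample left out, no miRNA reached an adjusted P-value of 0.05, and miR-16-5p kept an unadjusted P-value below 0.05 in each. Its log2 fold change ran from -0.44 to -0.373 over tools, scalings, filters and the block, from -0.47 to -0.348 when single samples were left out, and from -0.511 to -0.298 when both libraries of a number were left out of the blocked fit.

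The replicate block raised the miRNAs with an unadjusted P-value below 0.05 from 10 to 69 and the members from 1 to 3, and scaling by library size only gave 6 miRNAs. Leaving out single samples gave 3 to 32 miRNAs, with 32 without control replicate 1, 3 without control replicate 2, 6 without control replicate 3 and 5 without BDNF replicate 2. It gave 1 to 2 members, the second being miR-195-5p without BDNF replicate 1.

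Members near 0 changed sign. The log2 fold change of miR-15a-5p was -0.006 with library size only and -0.097 to 0.189 with samples left out. That of miR-497-5p was 0.009 with DESeq2 size factors, 0.032 with the upper quartile, 0.008 with DESeq2, 0.002 with no filter, 0.014 with a 1 RPM filter and -0.086 to 0.114 with samples left out. That of miR-322-3p was -0.031 with the replicate block, -0.033 with library size only and -0.291 to 0.151 with samples left out. In the blocked fit, leaving out both libraries of a number, an alternative chosen after seeing the data, gave -0.025 to 0.084 for miR-15a-5p, -0.162 to 0.118 for miR-497-5p and -0.152 to 0.067 for miR-322-3p.

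The BDNF-control difference in the share of miR-322-5p was -0.034 points with the 3p members in the total and -0.292 to 0.509 with samples left out, and that of miR-195-5p -0.023 to 0.162. The log2 arm ratio differed by -0.044 to 0.125 for miR-15b and by -0.399 to 0.043 for miR-195 with samples left out. With samples left out, values that kept their sign but moved by over 1.5 times were the share of miR-16-5p (-4.029 to -1.826 points), that of miR-15a-5p (0.761 to 1.751), that of miR-15b-5p (0.651 to 1.284), the log2 ratio of miR-195-5p to miR-497-5p (-0.462 to -0.202) and the log2 arm ratio of miR-322 (-0.386 to -0.153), and the log2 fold changes of miR-322-5p (-0.606 to -0.011) and miR-15b-5p (-0.289 to -0.046). The cause of these changes was not tested. Low counts limit the 3p strands, and 3 samples per group limit every exact test. The counts of adjusted P-values under each alternative were also added after seeing the data.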
